A study of Mus musculus with 2 samples.

Results

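Keratins and epithelial genes of bile duct and gut differed in opposite directions between the liver tumor libraries of WT and Fabp4-/- mice. The hepatocyte keratins *Krt8* and *Krt18* had ratios close to the median of all genes, *Tff3*, *Krt20* and *Krt23* were higher in the Fabp4-/- library, and *Vil1*, *Krt7* and *Epcam* were lower. The set holds 10 of the 48526 genes in the deposited table, taken by gene symbol: the keratins *Krt7*, *Krt8*, *Krt18*, *Krt19*, *Krt20* and *Krt23*, the surface protein gene *Epcam*, the transcription factor gene *Sox9*, the trefoil peptide gene *Tff3* and the villin gene *Vil1*. All 10 were present and passed the minimum of 1 TPM (a level corrected for transcript length and library total) in the higher library.

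Liver tumors came from male C57BL/6N mice, WT or with a global knockout of *Fabp4*, the gene for an adipocyte fatty acid-binding protein. Both genotypes had been injected intraperitoneally with N-nitrosodiethylamine (DEN, a liver carcinogen) at 25 mg/kg when 14 days old and fed a high-fat diet for 29 weeks from the age of 6 weeks. Each genotype had 1 library of polyA RNA. The labels and methods do not say how many mice or tumors went into a library, and with 1 library per genotype there is no replicate check, so no p-value was computed and genotype cannot be told apart from differences between the tumors sampled. Depth was similar, with 56353665 (WT) and 59600850 (Fabp4-/-) estimated read pairs. The 20 genes of highest TPM in each library held 26.2% of these in WT and 35.3% in Fabp4-/-. *Fabp4* itself measured 44.1 TPM (WT) against 0.03 TPM (Fabp4-/-), as the labels have it. Hepatocyte markers were abundant in both libraries (*Alb* at 49157 TPM and 65261 TPM).

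Keratins are the intermediate filament proteins of epithelial cells, and a filament is built from pairs of a type I and a type II keratin. Hepatocytes make almost only keratin 8 (type II) and keratin 18 (type I). Bile duct cells, or cholangiocytes, add keratin 7 (type II) and keratin 19 (type I) and also carry EpCAM and SOX9, which mark ductular cells and liver progenitors as well. Keratin 20, villin and the trefoil peptide TFF3 are best known from the lining of the gut. In bulk RNA, fewer cells of a type and less RNA per cell cannot be told apart.

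The promoters of the keratin and epithelial genes that differed most between the libraries are printed first, because members that differed in opposite directions can be compared in them. RefSeq (GRCm38.p6, the assembly of mm10) gave a window of 300 bases, reaching from upstream of the gene's start into its first bases, for 7 of the 10 members. *Krt19*, *Sox9* and *Tff3* had no entry. Each sequence runs 5′ to 3′ along the strand of its gene, and capitals mark matches, on either strand, to the TATA box TATAAA, the TEAD core GGAATG, the TCF/LEF core CTTTGA, the GC box GGGCGG or the CDX core TTTATG. *Krt20*, higher in Fabp4-/-, is at chr11:99438104-99438403 (minus strand). *Vil1*, at chr1:74409134-74409433 (plus strand), *Krt7*, at chr15:101412153-101412452 (plus strand), and *Epcam*, at chr17:87635729-87636028 (plus strand), were lower.
Krt20: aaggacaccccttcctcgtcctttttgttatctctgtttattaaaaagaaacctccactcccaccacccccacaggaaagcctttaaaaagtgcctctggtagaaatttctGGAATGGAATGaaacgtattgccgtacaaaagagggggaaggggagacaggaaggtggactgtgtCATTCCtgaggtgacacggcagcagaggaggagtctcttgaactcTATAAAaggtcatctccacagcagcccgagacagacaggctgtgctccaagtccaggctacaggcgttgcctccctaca
Vil1: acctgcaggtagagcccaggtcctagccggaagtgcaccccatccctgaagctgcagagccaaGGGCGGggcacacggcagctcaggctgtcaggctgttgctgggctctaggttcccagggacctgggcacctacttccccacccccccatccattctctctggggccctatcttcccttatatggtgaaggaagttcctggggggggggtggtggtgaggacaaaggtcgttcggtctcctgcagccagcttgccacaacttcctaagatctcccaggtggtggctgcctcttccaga
Krt7: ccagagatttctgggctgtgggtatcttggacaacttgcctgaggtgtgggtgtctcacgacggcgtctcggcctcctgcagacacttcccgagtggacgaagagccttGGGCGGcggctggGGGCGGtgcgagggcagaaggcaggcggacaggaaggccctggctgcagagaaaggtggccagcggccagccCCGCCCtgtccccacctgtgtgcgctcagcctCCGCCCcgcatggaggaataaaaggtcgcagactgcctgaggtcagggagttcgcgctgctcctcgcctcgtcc
Epcam: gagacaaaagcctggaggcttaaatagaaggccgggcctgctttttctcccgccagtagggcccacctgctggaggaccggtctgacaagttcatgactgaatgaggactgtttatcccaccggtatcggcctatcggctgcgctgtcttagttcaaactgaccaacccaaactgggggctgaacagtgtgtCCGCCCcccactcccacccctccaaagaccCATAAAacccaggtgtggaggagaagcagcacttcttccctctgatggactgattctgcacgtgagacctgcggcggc

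The *Krt20* window held 3 matches to the TEAD core, at 139, 134 and 74 bases before the start, of which the first and second share 1 base, and a TATA box 29 bases before the start. No other member's window held the TEAD core, which was present in 14.7% of all 32851 windows. The *Krt7* window held 4 GC boxes, and *Vil1* and *Epcam* had 1 each, against 35.7% of all windows with at least 1. The CDX core was in 2 of the 7 windows, *Krt23* and *Epcam*, and in 11.9% of all. The TATA box was in 2, *Krt8* and *Krt20*, and in 13.6% of all. The TCF/LEF core was in 0 of the 7 windows and in 5257 of the 32851. A match is a run of letters and not evidence of binding. For *Krt7* the RefSeq start lies inside the gene as the deposited table gives it.

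Over all 13557 genes that reached 1 TPM in either library, the median log2 ratio of Fabp4-/- over WT was −0.46 by TPM with 0.5 added and 0.04 by the normalised counts deposited by the authors with 10 added. Of the 10 members, 3 were at least 2-fold lower by TPM, where 14.2% of all measured genes were, and 2 were at least 2-fold higher, where 2.18% were. By normalised counts 3 were at least 2-fold lower, against 6.26% of all, and 3 at least 2-fold higher, against 4.78%. Among all genes past 2-fold, 86.7% were lower by TPM and 56.7% by normalised counts, so the split of directions depends on the scale. The members' median was −0.56 by TPM and 0.00 by normalised counts, close to that of all genes on either scale. *Krt8* and *Sox9* had the opposite sign on the 2 scales, and the other 8 kept theirs. Relative to the median of all genes, 6 members lay below it and 4 above it on both scales.

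**Figure D1:**
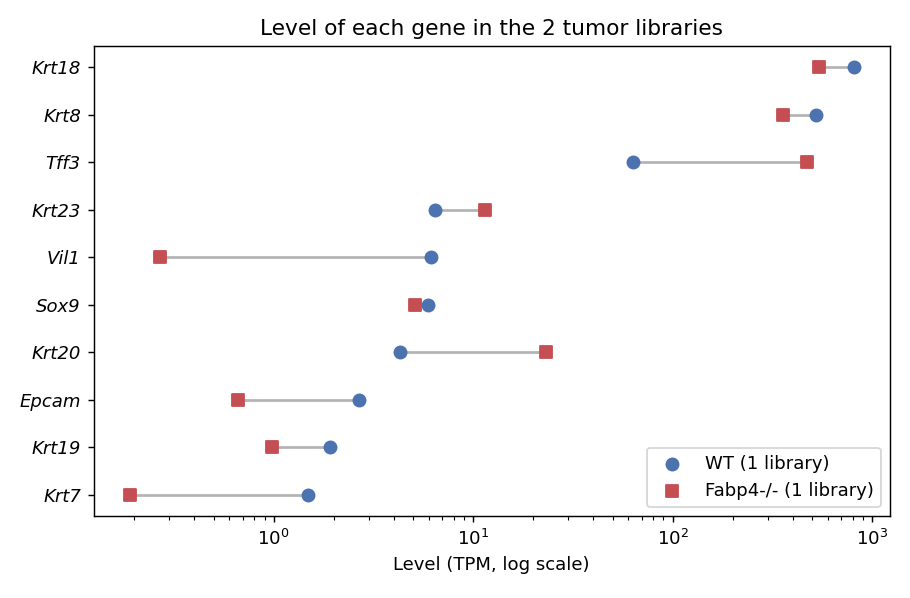
Level of each of the 10 genes in TPM (log axis) in the WT library (circles) and the Fabp4-/- library (squares), with 1 library per genotype and no error bars. *Krt8* and *Krt18* lie far to the right in both libraries, *Tff3* is at 63.7 TPM (WT) and 474 TPM (Fabp4-/-), and *Vil1* at 6.14 TPM and 0.27 TPM.

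*Krt18* (ENSMUSG00000023043.6), the type I keratin of hepatocytes, was the most abundant member, at 807 TPM (WT) and 541 TPM (Fabp4-/-). It lies on chromosome 15 of mm10 from 102028216 to 102032026 on the plus strand. Its partner *Krt8* (ENSMUSG00000049382.9), the type II keratin of hepatocytes, lies 23.9 kb away on the opposite strand, from 101996711 to 102004342, and was at 525 TPM and 358 TPM. Both were above at least 97.8% of measured genes in each library. In TPM, *Krt18* had a log2 ratio of −0.58 and *Krt8* of −0.55, near the median of all genes. By normalised counts *Krt18* was at 39926 and 39669, a ratio of 0.994 with a 95% exact binomial confidence interval (CI) of 0.980 to 1.01. *Krt8* was at 34697 and 35031, a ratio of 1.01 (95% CI 0.995 to 1.02). The intervals here and below cover counting error only. Neither gene of the hepatocyte pair differed between the libraries beyond counting error on that scale. RSEM divides shared reads by estimate, and the processed pseudogene *Krt8-ps* was at 1.52 TPM and 1.01 TPM.

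*Krt7* plus *Krt8* over *Krt18*, *Krt19*, *Krt20* and *Krt23*, in TPM, was 0.643 in WT (95% CI 0.634 to 0.651) and 0.621 in Fabp4-/- (0.612 to 0.630), so type I transcripts outnumbered type II. *Krt8* over *Krt18* alone was 0.651 in WT and 0.662 in Fabp4-/-, in the opposite direction. The pair made up 98.5% of all keratin TPM in WT and 95.8% in Fabp4-/-. *Krt20* held 0.317% of keratin TPM in WT and 2.47% in Fabp4-/-, and *Krt20* and *Krt23* together summed to 10.8 TPM and 34.6 TPM.

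*Krt20* (ENSMUSG00000035775.2), a type I keratin of gut, urothelial and Merkel cells, measured 4.29 TPM (WT) against 23.2 TPM (Fabp4-/-). The gene lies on chromosome 11 from 99428403 to 99438150. From 346 and 2149 estimated read pairs, the normalised counts were 305 and 2438, a ratio of 7.99 (95% CI 7.13 to 8.98). The log2 ratio of TPM was 2.30, and 99.5% of measured genes had a lower one. Its level was above 29.5% of measured genes in WT and above 78.4% of them in Fabp4-/-. *Krt23* (ENSMUSG00000006777.7), a type I keratin that appears in injured mouse liver and in ductular reactions, is separated from *Krt20* by 39.8 kb, on chromosome 11 from 99477974 to 99493137. It was at 6.47 TPM and 11.5 TPM, with normalised counts of 364 and 955. The ratio was 2.62 (95% CI 2.33 to 2.96) by normalised counts, past 2-fold, and the log2 ratio by TPM was 0.78, short of it. Of the keratins on the other side of *Krt20*, *Krt12* had 1 read pair in WT and 9 in Fabp4-/-, too few to compare, and *Krt10* had 56 and 85.

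*Tff3* (ENSMUSG00000024029.4) encodes a secreted trefoil peptide that protects mucosal surfaces and is made by goblet cells and by bile duct epithelium. It lies on chromosome 17 from 31125306 to 31129646 and had the highest ratio of the 10 members. The level was 63.7 TPM (WT) and 474 TPM (Fabp4-/-), from 892 and 7675 estimated read pairs. The normalised counts of 786 and 8706 gave a ratio of 11.1 (95% CI 10.3 to 11.9), and the log2 ratio of TPM was 2.89, above that of 99.7% of measured genes. At 474 TPM the transcript lay between *Krt8* and *Krt18* in the same library. The other trefoil genes were hardly detected. *Tff1* was at 0.30 TPM and *Tff2* at 0.27 TPM in WT, from 4 and 5 read pairs, and both were listed at 0 in Fabp4-/-.

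*Vil1* (ENSMUSG00000026175.12) encodes villin, which bundles the actin of microvilli in the gut and on bile canaliculi, and had the lowest ratio of the set. The gene lies on chromosome 1 from 74409376 to 74435559. It measured 6.14 TPM (WT) against 0.27 TPM (Fabp4-/-), from 790 and 42 estimated read pairs. By normalised counts, 696 and 47.6, it was 14.6-fold lower (95% CI 10.7 to 20.4), and 0.450% of measured genes had a lower ratio by TPM. *Usp37*, on the opposite strand, shares 49 bases with *Vil1* and was at 2.38 TPM and 0.75 TPM. Whether counting used strand was not stated. Of 15 listed genes of microvilli and villin partners, 11 were measured. By TPM 2 were at least 2-fold lower and 0 higher, against 14.2% and 2.18% of all measured genes. Their median was −0.48, beside −0.46 for all genes. *Espn*, for the actin bundler espin, was at 4.61 TPM and 0.50 TPM. The microvillar scaffold gene *Slc9a3r1* was at 118 TPM and 108 TPM, and *Cdhr5*, a protocadherin of microvilli, at 31.8 TPM and 15.1 TPM. The actin bundler gene *Pls1* was at 2.77 TPM and 3.72 TPM, and the villin relative *Vill* at 16.2 TPM and 14.4 TPM.

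**Figure D2:**
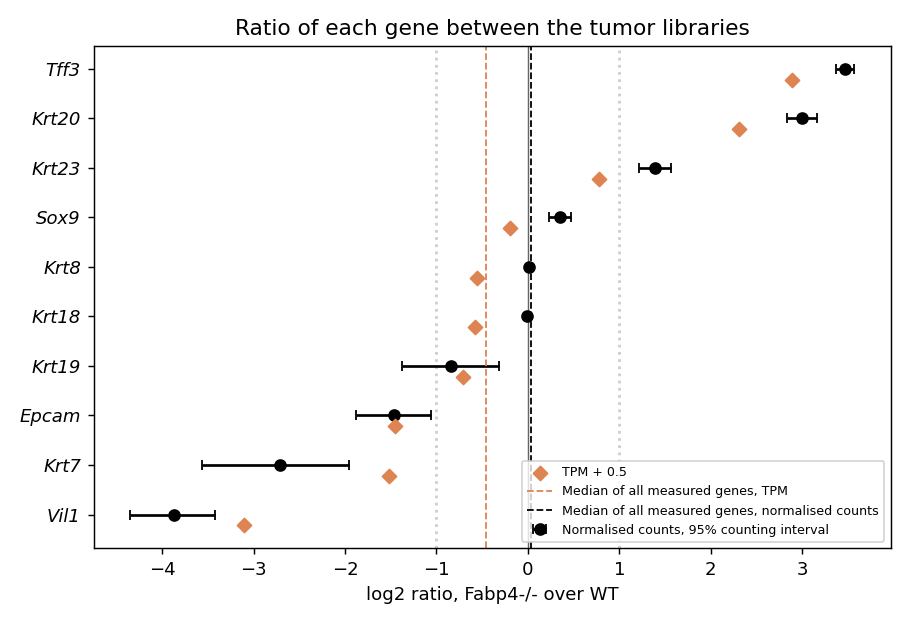
log2 ratio of Fabp4-/- over WT for each gene, by normalised counts with the 95% exact binomial interval for counting error (black circles and bars) and by TPM with 0.5 added (orange diamonds). Dashed lines mark the median of all 13557 measured genes on each scale, −0.46 by TPM and 0.04 by normalised counts, and dotted lines mark 2-fold. *Tff3*, *Krt20* and *Krt23* lie to the right on both scales, and *Epcam*, *Krt7* and *Vil1* to the left.

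The bile duct keratins *Krt7* and *Krt19* and the ductular marker *Epcam* were low in both libraries. *Krt7* (ENSMUSG00000023039.16), on chromosome 15 from 101411043 to 101430313, measured 1.48 TPM (WT) against 0.19 TPM (Fabp4-/-). From 135 and 16 read pairs it was 6.56-fold lower by normalised counts (95% CI 3.89 to 11.8). *Epcam* (ENSMUSG00000045394.8), an adhesion molecule of ductular and progenitor cells, lies on chromosome 17 from 87635979 to 87651106 and was at 2.68 TPM and 0.66 TPM. It was 2.75-fold lower by normalised counts (95% CI 2.08 to 3.68), from 230 and 65 read pairs. *Krt19* (ENSMUSG00000020911.14), on chromosome 11 from 100140810 to 100148665, was at 1.92 TPM and 0.98 TPM, from 101 and 44 read pairs, and its normalised counts of 89.0 and 49.9 gave a 1.78-fold lower level (95% CI 1.24 to 2.60). It did not reach 2-fold on the scales with a pseudocount, with log2 ratios of −0.71 by TPM and −0.73 by normalised counts.

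*Sox9* (ENSMUSG00000000567.5), the transcription factor of ductal and progenitor cells, lies on chromosome 11 from 112782224 to 112787760 and did not follow *Krt7* and *Epcam*. Its level was 5.91 TPM (WT) and 5.10 TPM (Fabp4-/-), a log2 ratio of −0.19. By normalised counts it was at 956 and 1219, a ratio of 1.28 (95% CI 1.17 to 1.39), so that its direction depended on the scale. Of the 20 listed *Sox9* regulators of the Notch and YAP pathways and biliary transcription factors, 19 were measured. In TPM 4 were lower and 0 higher by at least 2-fold, against 14.2% and 2.18% of all measured genes. By normalised counts 0 were lower and 2 higher, against 6.26% and 4.78%. The median was −0.65 by TPM, beside −0.46 for all genes, and −0.17 by normalised counts, beside 0.04. *Notch1*, a receptor that drives bile duct fate, was at 5.63 TPM and 2.22 TPM. *Amotl2* and *Ankrd1*, both YAP targets, were at 12.1 TPM and 5.07 TPM and at 8.86 TPM and 14.5 TPM. *Cebpa*, a hepatocyte transcription factor, was at 108 TPM and 155 TPM.

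Of 20 other biliary epithelial genes, 14 were measured. By at least 2-fold in TPM, 4 were lower and 1 higher, against 14.2% and 2.18% of all measured genes. In normalised counts 3 were lower and 2 higher, against 6.26% and 4.78%. The median was −0.48 by TPM and −0.02 by normalised counts, both near the median of all genes. The genes that define mature cholangiocytes were near 0: the chloride channel gene *Cftr* measured 0.23 TPM (WT) against 0.01 TPM (Fabp4-/-) (66 and 2 read pairs), and the secretin receptor gene *Sctr* 0.36 TPM and 0.01 TPM (30 and 1 read pairs). The matricellular protein gene *Spp1*, also made by macrophages, was at 468 TPM and 985 TPM. *Bicc1*, an RNA-binding protein of ducts, was at 12.9 TPM and 2.59 TPM, and *Cd24a*, a surface marker of progenitors, at 18.3 TPM and 4.10 TPM. The bile acid transporter gene *Slc10a2* was at 10.8 TPM and 14.9 TPM. Its ratio by normalised counts was 2.04 (95% CI 1.93 to 2.16), past 2-fold on that scale only.

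Ductular reaction and progenitor genes numbered 15, of which 11 were measured. In TPM 5 were lower by at least 2-fold, where 14.2% of all measured genes were, and 0 higher, and by normalised counts 4 were lower, where 6.26% of all were, and 0 higher. The median of the list was −0.44 by TPM, beside −0.46 for all genes, and 0.13 by normalised counts, beside 0.04. *Lcn2*, lipocalin 2, the most abundant, measured 2893 TPM (WT) against 1042 TPM (Fabp4-/-). *Lgr5*, a receptor of progenitor cells and of pericentral hepatocytes, was at 7.14 TPM and 0.59 TPM, and the oncofetal glypican gene *Gpc3* at 404 TPM and 89.5 TPM. *Igfbp3*, which binds insulin-like growth factors, was at 64.6 TPM and 81.6 TPM, and the fetal liver gene *Afp* at 222 TPM and 247 TPM. *Itgb4*, an integrin of ductular cells, was at 0.94 TPM and 1.21 TPM.

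Genes of the gut lining other than the members were mostly low. Of 22 listed, 17 were under 1 TPM in both libraries and 5 were at 0 in both, among them *Cdx1* and *Cdx2*, the transcription factors that set intestinal identity. With these defining genes at 0, *Krt20*, *Tff3* and *Vil1* are called gut genes here only for the tissue they are best known from. By TPM 2 of the 5 measured genes were at least 2-fold lower and 1 higher, against 14.2% and 2.18% of all measured genes. By normalised counts 0 were at least 2-fold lower and 3 higher, against 6.26% and 4.78%. The median was 0.32 by TPM, beside −0.46 for all genes, and 1.01 by normalised counts, beside 0.04. *Fabp2*, the intestinal fatty acid-binding protein, measured 190 TPM (WT) against 294 TPM (Fabp4-/-), and the membrane mucin gene *Muc3* 0.08 TPM and 1.0 TPM. The cadherin gene *Cdh17* was at 26.5 TPM and 9.27 TPM, and the galectin gene *Lgals4* at 39.3 TPM and 17.8 TPM.

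Of 11 listed EpCAM partners and other trefoil genes, 7 were measured. By TPM 1 was at least 2-fold lower and 0 higher, against 14.2% and 2.18% of all measured genes. The tetraspanin gene *Tspan8*, an EpCAM partner, was at 131 TPM and 57.3 TPM, and the claudin gene *Cldn3* at 154 TPM and 166 TPM.

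The table held 50 protein-coding keratin genes, 26 of type I and 24 of type II, and 28 of them were at 0 in both libraries. Apart from the 6 keratins of the set, 3 reached 1 TPM. *Krt17*, a type I keratin of injured and basal epithelium, was at 2.03 TPM in WT from 128 read pairs and was listed at 0 in Fabp4-/-. Against a floor of 3 read pairs in the Fabp4-/- library it was at least 33.2-fold lower by normalised counts. *Krt5*, the type II keratin of basal cells, was at 1.66 TPM and 0.63 TPM, and *Krt10*, a type I keratin of the epidermis, at 1.68 TPM and 2.04 TPM. The usual partner of *Krt5*, *Krt14*, was at 0.02 TPM in WT and listed at 0 in Fabp4-/-. Counting *Krt14*, the other 13 detected keratins were at most at 0.34 TPM. Keratins of 1 type resemble each other, and reads shared between paralogs are divided by estimate.

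**Figure D3:**
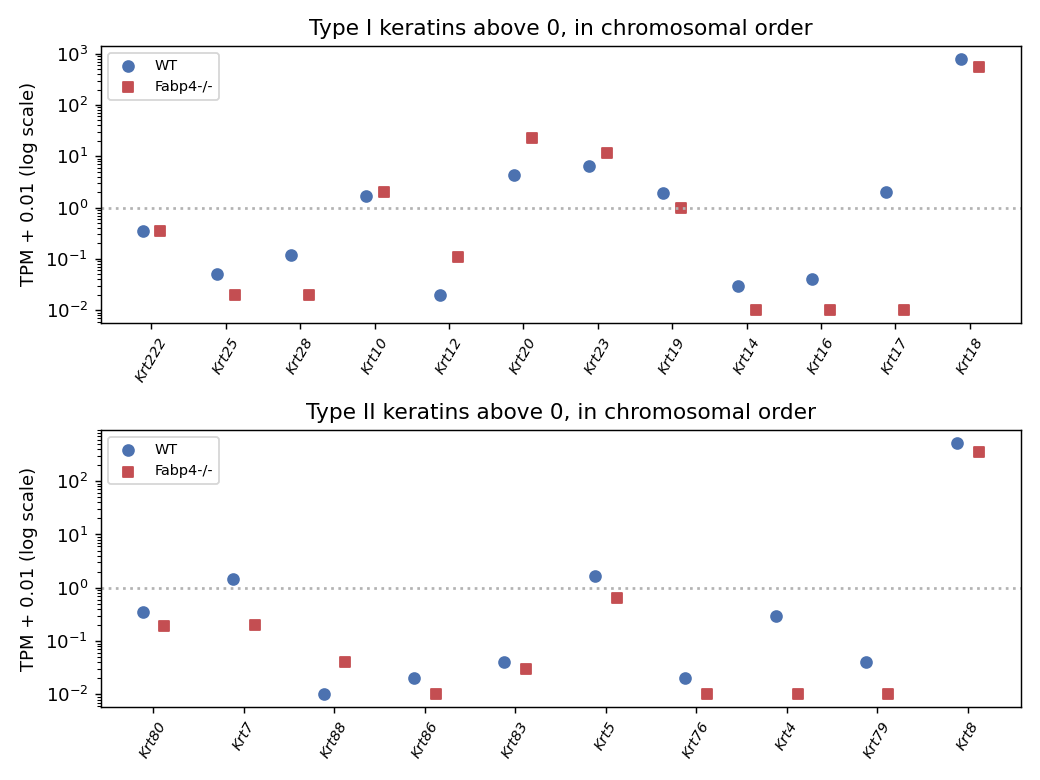
Level of every keratin gene above 0 in either library, in TPM with 0.01 added (log axis), in the order of the genes along the chromosomes, for type I (upper panel) and type II (lower panel), with WT as circles and Fabp4-/- as squares. The dotted line marks 1 TPM. *Krt18* and *Krt8* stand far above the rest, *Krt20* and *Krt23* are the next highest in type I, and *Krt17* is at the bottom in Fabp4-/-.

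Most genes for proteins that hold keratin filaments at desmosomes and in the cytoplasm stayed within 2-fold, as did most measured genes. Of 16 listed, 14 were measured. In TPM 12 of them stayed within 2-fold, beside 11333 of all 13557 genes, with 2 past it downward and 0 upward. By normalised counts 13 did, beside 12060 of all 13557, with 1 past it downward and 0 upward. The list median was −0.73 by TPM, below the −0.46 of all genes, and −0.18 by normalised counts, below 0.04. *Dsp*, which encodes the linker desmoplakin, measured 9.55 TPM (WT) against 3.41 TPM (Fabp4-/-). *Pkp3*, a plakophilin, was at 2.48 TPM and 0.79 TPM. *Hspa8*, a chaperone, was the most abundant, at 1612 TPM and 963 TPM. *Sqstm1*, whose protein p62 gathers with keratins 8 and 18 in Mallory-Denk bodies, was at 367 TPM and 282 TPM. Other intermediate filaments did not reach 2-fold in any of the 6 measured genes, with *Vim*, the vimentin of mesenchymal cells, at 135 TPM and 120 TPM and the lamin gene *Lmna* at 101 TPM and 66.1 TPM.

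**Figure D4:**
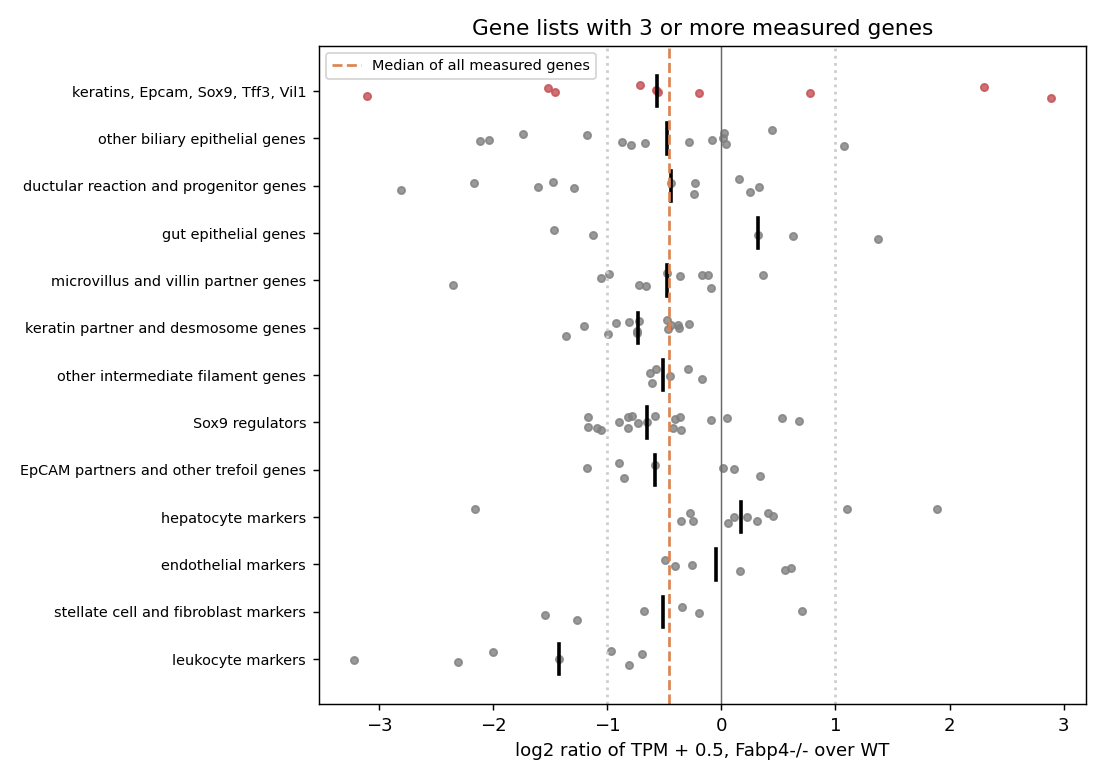
log2 ratio of TPM with 0.5 added, Fabp4-/- over WT, for each measured gene (points) of the 10 members (red) and of the gene lists with 3 or more measured genes (grey), with the list median as a black bar. The dashed line is the median of all 13557 measured genes, −0.46, and dotted lines mark 2-fold. The members spread from −3.11 (*Vil1*) to 2.89 (*Tff3*), more widely than any of the lists shown, while their median of −0.56 lies near the dashed line.

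Markers of some other cell types also differed between the libraries. Mesothelial cells, which line the liver surface, also make keratins 7, 8, 18 and 19. Of 10 mesothelial markers, 9 were under 1 TPM in both libraries, and the 10 summed to 6.32 TPM (WT) and 2.11 TPM (Fabp4-/-). All 10 were lower in Fabp4-/- on both scales. Of all measured genes, 84.4% were lower at all by TPM and 46.6% by normalised counts. *Igfbp5*, the 1 marker above 1 TPM, was at 3.98 TPM and 1.51 TPM. *Upk3b* was at 0.30 TPM and 0.01 TPM (46 and 2 read pairs), and *Msln* at 0.71 TPM and 0.19 TPM. Of 7 leukocyte markers, 4 were at least 2-fold lower by TPM (summed 219 TPM and 115 TPM), where 14.2% of all measured genes were. By normalised counts 3 were, where 6.26% of all were. All 7 were lower on both scales, beside the 84.4% (TPM) and 46.6% (normalised counts) of all measured genes lower at all. Their median was −1.43 by TPM, beside −0.46 for all genes, and −0.95 by normalised counts, beside 0.04. Of the 12 hepatocyte markers, by TPM 2 were past 2-fold upward and 1 downward, against 2.18% and 14.2% of all measured genes. By normalised counts 3 were past 2-fold upward and 1 downward, against 4.78% and 6.26%. Their median was 0.17 by TPM, beside −0.46 for all genes, and 0.73 by normalised counts, beside 0.04. Pancreatic acinar markers were under 1 TPM in 9 of 10, and squamous markers in 8 of 10. Endothelial markers had a median of −0.05 and stellate cell and fibroblast markers of −0.51 by TPM, beside −0.46 for all genes. By normalised counts these medians were 0.45 and −0.02, beside 0.04. The part of these cells in the levels of *Krt7*, *Krt19*, *Epcam* and *Krt17* was not tested.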

How the data were processed

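Tumor polyA RNA of 1 WT and 1 Fabp4-/- library was sequenced from both ends by the authors. STAR 2.5.2, RSEM 1.2.31 and mm10 are credited to the submitters' processing notes, which name no settings. The authors deposited TPM values per gene and normalised counts, a signal on a read scale that is not whole. Their commonest nonzero value (WT 0.882, Fabp4-/- 1.13) was taken as 1 read pair and gave estimated read pairs, whole to within 0.0001 for 86.0% and 86.4% of values above 0. The fold changes, PPDE and FDR that the authors deposited were not used.

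Ratios are log2 of Fabp4-/- over WT after adding 0.5 TPM (or 10 normalised counts, the main alternative), for genes whose higher library reached 1 TPM. Genes were counted at 2-fold. Exact binomial 95% intervals of read-pair ratios, without pseudocount, cover counting error only, since amplified copies are not told apart. A floor of 3 read pairs was used for a library at 0. The 10 members and the 15 gene lists were chosen with earlier results of these data known, so none is independent evidence. Named genes are all members, other keratins at 1 TPM or more and, in each list, the 2 most abundant genes and up to 2 with the largest ratios either way. Not every listed gene so taken is printed, and marker lists are mostly given as counts. A few others were chosen after their values were seen, among them *Afp*, *Cftr*, *Sctr*, *Vill*, *Upk3b*, *Msln*, *Krt12*, *Krt14*, *Tff1*, *Tff2*, *Cdx1*, *Cdx2* and *Usp37*. The listed *Ccn1*, *Ccn2* and *Tf* were matched to *Cyr61*, *Ctgf* and *Trf*, and *Eppk1* was not analysed here. Positions are those of the deposited table, and 6 of the 10 members have the same position in GENCODE M21. The ratio script was tested on simulated data. Scripts ran in Python 3.11.15 with scipy 1.17.1, numpy 2.4.6, matplotlib 3.10.9 and pandas 2.3.3. Scaling, pseudocount, minimum and fold threshold were varied.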

Additional observations from a re-analysis of the deposited data

How the results depend on the processing

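No paired analysis was possible because WT and Fabp4-/- have 1 library apiece. The main limits are the single library per genotype, the scale, and the few read pairs of *Krt7*, *Krt19*, *Epcam* and *Vil1* in Fabp4-/-. Across the alternatives, log2 ratios ranged from −4.08 to −2.49 for *Vil1*, −2.45 to −1.06 for *Krt7*, −1.87 to −1.10 for *Epcam*, 2.19 to 2.96 for *Krt20*, 2.88 to 3.45 for *Tff3* and 0.74 to 1.37 for *Krt23*. With a minimum of 5 TPM, which 7 members reach, 1 member was at least 2-fold lower, and at 4-fold 1 was. The members' median was 0.0023 by normalised counts, −0.40 when the 20 most abundant genes were left out of the totals, −0.061 under upper quartile scaling, −0.17 under median centring and −0.19 for the 7 members past 5 TPM. All genes at least 2-fold lower and higher, 1928 and 296 by TPM, became 941 and 562 with median centring, 717 and 638 with upper quartile scaling and 849 and 648 by normalised counts. Leaving the 20 most abundant genes out of the totals gave 446 higher, and the 5 TPM minimum gave 1083 lower. The 1.5-fold threshold gave 5318 lower and 568 higher, and the 4-fold threshold 251 and 90. Of these all-gene calls, 62.6% were lower with median centring, 52.9% with upper quartile scaling and 73.6% at 4-fold. Listed genes lower and higher, 27 and 4, became 17 and 7 with median centring, 12 and 10 with upper quartile scaling, 14 and 13 by normalised counts, 54 and 8 at 1.5-fold and 9 and 0 at 4-fold. The keratin type ratio was 0.856 in WT and 0.813 in Fabp4-/- by normalised counts, which are not per length, and 0.662 in Fabp4-/- with *Krt8* over *Krt18* alone. A higher minimum admits fewer genes. For the other shifts the cause was not tested.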

Other observations

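The 2 scales differed by a nearly fixed amount for most members but not for *Krt19* and *Krt7*. The log2 ratio by normalised counts, with no pseudocount, exceeded that by TPM by 0.57 for *Krt8*, *Krt18*, *Krt20*, *Krt23* and *Tff3*, by 0.56 for *Epcam* and *Sox9* and by 0.64 for *Vil1*, and the median over the 5192 genes at 10 TPM or more in both libraries was 0.57. For *Krt7* the gap was 0.25 and for *Krt19* it was 0.14, and 1.43% of those 5192 genes had a smaller gap than *Krt19*. Both genes were themselves under 10 TPM, and their rank among genes of like level was not taken. TPM is corrected for the estimated length of the transcripts and the normalised counts are not. *Krt19* and *Krt7* rested on few read pairs in Fabp4-/-, 44 and 16, but so did *Vil1* with 42 and *Epcam* with 65. The transcript isoforms of *Krt19* and *Krt7* were not analysed here, and the cause of their smaller gap was not tested.

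*Krt20* over *Krt19* in TPM, type I keratins of gut and bile duct, was 2.23 in WT and 23.6 in Fabp4-/-. The summed level of *Krt7* and *Krt19* was 3.40 TPM (WT) and 1.17 TPM (Fabp4-/-), and that of *Krt20* and *Krt23* was 10.8 TPM and 34.6 TPM. These sums were chosen after the values were seen. Among gut genes outside the members, *Clca4a* was listed at 0 in WT and at 0.26 TPM in Fabp4-/- (39 read pairs), under the 1 TPM minimum. *Alpi* was at 0 and 0.05 TPM (6 read pairs). *Tff1*, *Tff2*, *Agr2*, *Reg3b* and *Reg3g* went the other way, from 1 to 5 read pairs in WT to 0 in Fabp4-/-. These genes too were chosen after their values were seen.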
